A study of Mus musculus with 6 samples.

Results

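The genes described here encode 7 transcription factors that set the fate of myeloid cells: PU.1 (listed under its older symbol Sfpi1), Irf8, Klf4, Maf, Gfi1, Runx1 and Myb. They were chosen by symbol from the 23337 genes of the deposited count table, and all 7 were found and passed the filter on low counts, which left 12174 genes tested. RNA was sequenced from mouse leukemia that the labels call primary and neonatal, and the series title names an MLL rearrangement. There were 3 libraries treated with ccl5, a chemokine, and 3 control libraries. Ccl5 replicate 1 was labelled neo30 and came from a tertiary leukemia transplant. Ccl5 replicates 2 and 3 and control replicate 3 were labelled neo10 and primary transplants, and for control replicates 1 and 2 the labels name no line and no transplant. The dose and time of ccl5, the fusion gene, the host and whether libraries share an animal or culture are not given in the sources used here, so p-values measure only the spread between these libraries.

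PU.1 is an ETS factor whose level steers blood progenitors, with high levels favouring macrophages. IRF8 binds DNA with PU.1 and, with KLF4 downstream of it, drives monocyte formation, while GFI1 represses monocyte genes and is needed to make neutrophils. MAF acts in macrophages, RUNX1 is required for blood stem cells to form and opens myeloid enhancers, and MYB keeps progenitors dividing and is shut off as they mature. MLL-rearranged leukemias are known to depend on MYB.

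The 6 libraries held 13421100 to 18445095 counts and fell into 3 closely alike pairs, which did not follow the treatment. Pearson r of log2 CPM (scaled counts) over 12174 genes was 0.995 between ccl5 replicate 2 and control replicate 3, 0.993 between ccl5 replicates 1 and 3, and 0.995 between control replicates 1 and 2. Every other pair of libraries had r between 0.826 and 0.887. Reads of the Y-linked genes Ddx3y, Eif2s3y, Kdm5d and Uty numbered 0 in ccl5 replicates 1 and 3 and 5103 to 7777 in the other 4 libraries. Ccl5 replicate 3 thus shares the label neo10 with ccl5 replicate 2 and control replicate 3 but differs from both in Y-linked reads. Whether any library carries the label of another was not tested, and each ccl5 against control value below rests on the labels as given. What sets ccl5 replicates 1 and 3 apart from control replicates 1 and 2 cannot be told apart from the treatment. Levels are therefore given library by library, and fold changes of the 7 factors also without single libraries.

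Promoter sequence of 4 of the genes is shown, for the monocyte factor Irf8, the opposing Gfi1 and the progenitor factors Myb and Runx1. Of the 7 genes, 5 had RefSeq promoter windows (build GRCm38.p6, from 250 bases before to 50 bases after a start site), 8 windows in all, and Sfpi1 and Maf had none in the table used. The first Irf8 window (chr8:120736108-120736407, plus strand) has in capitals the 9-letter motif TTCNNNGAA of STAT factors.
Irf8: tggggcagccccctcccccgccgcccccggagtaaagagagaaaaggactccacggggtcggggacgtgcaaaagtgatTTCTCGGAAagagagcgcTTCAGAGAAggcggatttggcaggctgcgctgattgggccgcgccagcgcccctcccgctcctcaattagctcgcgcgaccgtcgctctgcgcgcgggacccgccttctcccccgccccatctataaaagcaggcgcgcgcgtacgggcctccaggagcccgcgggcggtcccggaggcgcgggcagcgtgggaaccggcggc
The upstream Gfi1 window (chr5:107725756-107726055, minus strand) has in capitals the core AACTG bound by MYB, or its reverse complement. It lies wholly upstream of the counted Gfi1 exons (107716655 to 107724343). The second Gfi1 window (chr5:107724294-107724593), which spans the start of those exons, held 0 matches to AACTG.
Gfi1: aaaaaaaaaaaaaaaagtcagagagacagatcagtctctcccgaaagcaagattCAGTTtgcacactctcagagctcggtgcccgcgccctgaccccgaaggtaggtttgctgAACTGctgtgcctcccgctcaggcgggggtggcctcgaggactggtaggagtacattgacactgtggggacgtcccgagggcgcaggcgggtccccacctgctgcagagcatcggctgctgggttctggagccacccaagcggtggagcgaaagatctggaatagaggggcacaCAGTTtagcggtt
The Myb window (chr10:21160935-21161234, minus strand) has in capitals the E2F motif TTTGGCG.
Myb: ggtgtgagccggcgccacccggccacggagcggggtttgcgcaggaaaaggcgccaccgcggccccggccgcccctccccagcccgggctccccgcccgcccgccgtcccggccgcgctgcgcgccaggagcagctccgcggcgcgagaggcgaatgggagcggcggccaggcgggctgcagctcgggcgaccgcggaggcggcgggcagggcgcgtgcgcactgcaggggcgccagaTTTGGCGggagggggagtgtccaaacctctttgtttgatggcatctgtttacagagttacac
The distal Runx1 window (chr16:92826025-92826324, minus strand) has in capitals ACCACA, the reverse complement of the RUNX motif TGTGGT.
Runx1: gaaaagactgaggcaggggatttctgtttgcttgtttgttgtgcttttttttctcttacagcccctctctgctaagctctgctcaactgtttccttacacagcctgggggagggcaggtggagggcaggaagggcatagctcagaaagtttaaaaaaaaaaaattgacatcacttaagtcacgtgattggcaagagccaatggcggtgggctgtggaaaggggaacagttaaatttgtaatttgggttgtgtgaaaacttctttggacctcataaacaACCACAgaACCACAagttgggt
Among 32851 windows of the same length, searched on both strands, TTCNNNGAA occurred in 8.3%, AACTG in 44.8%, TTTGGCG in 1.56% and TGTGGT in 16.8%. Of the 8 windows of these genes, 4 held AACTG, and TTCNNNGAA, TTTGGCG and TGTGGT were in 1 each. The second windows of Irf8, Gfi1 and Runx1, not shown, held 0 matches to the motif marked in the first. The Klf4 window, also not shown, held 0 matches to the KLF core CACCC. The PU.1 core GAGGAA was in 1 of the 8 windows against 28.3% of all windows, and the IRF motif of paired GAAA runs set 2 letters apart in 0 of 8 against 3.44%. The KLF core CACCC was in 3 of 8 (57.5% of all), the GFI1 core AATCA in 4 of 8 (37.0%) and the MAF core TGCTGA in 2 of 8 (19.5%). In the upstream Gfi1 window 1 AACTG shares 1 letter with TGCTGA. These are letter matches and not measured binding sites.

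Sfpi1 (chromosome 2, 91096797 to 91115756, mm10) varied least of the 7 genes. It measured 283, 196 and 244 CPM in ccl5 replicates 1 to 3, against 176, 165 and 193 CPM in control replicates 1 to 3, where CPM is a count scaled to library size by TMM, a trimmed mean that sets most genes level between libraries. The groups lay apart, but only by the gap between 196 CPM in ccl5 replicate 2 and 193 CPM in control replicate 3. Ccl5 libraries averaged 241 ± 43.3 CPM and control libraries 178 ± 13.9 CPM (SD, n = 3 each), and edgeR's quasi-likelihood test gave a log2 fold change of 0.44 with SE 0.19 and adjusted p = 0.369. Scaled to total counts alone, Sfpi1 measured 239, 232 and 199.8 CPM with ccl5, against 179, 168 and 226 CPM in controls, and the groups overlapped. That scaling moved the median log2 fold change of all tested genes to -0.17, against -0.01 with TMM, and Sfpi1 to 0.23. In these bulk samples fewer cells of a type and less RNA per cell cannot be told apart.

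The monocyte-side factors Irf8, Klf4 and Maf were high together in ccl5 replicates 1 and 3. Irf8 (chromosome 8, 120736376 to 120756692) measured 459.8, 66.8 and 404 CPM in ccl5 replicates 1 to 3, against 231, 204 and 68.2 CPM in control replicates 1 to 3. Ccl5 replicate 2 was the lowest of all 6 libraries and control replicate 3 nearly equal to it, so the groups overlapped. The log2 fold change was 0.89 (SE 0.78; edgeR, adjusted p = 0.618), with means of 310.4 ± 213 CPM for ccl5 and 168 ± 87.1 CPM for controls.

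Klf4 (chromosome 4, 55527137 to 55532475), a zinc finger factor of monocytes, had 20.01, 2.87 and 22.8 CPM with ccl5, against 2.41, 2.51 and 2.59 CPM in controls. All ccl5 libraries lay above all controls, but ccl5 replicate 2 exceeded control replicate 3 by a ratio of only 1.11, with 47 counts in each. The log2 fold change was 2.60 (SE 0.75), with an unadjusted p of 0.0137 and an adjusted p of 0.365 in edgeR. Klf4 was the 1 member with an unadjusted p under 0.05, against 13.7% of all tested genes, 8.99% higher like Klf4 and 4.67% lower.

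Maf (chromosome 8, 115703253 to 115706894) encodes c-MAF, a leucine zipper factor of macrophages. It measured 29.9, 5.92 and 27 CPM with ccl5, against 0.824, 0.213 and 6.44 CPM in controls. Here control replicate 3 was the highest control and lay above ccl5 replicate 2. Control replicates 1 and 2 had 13 and 4 counts, so that the 140.3-fold range over the 6 libraries rests on few reads at its low end. The log2 fold change was 3.06 (SE 1.29; edgeR, adjusted p = 0.367).

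Gfi1 (chromosome 5, 107716655 to 107724343), the repressor of the neutrophil side, ran opposite to Irf8. It measured 3.92, 240.0 and 2.37 CPM in ccl5 replicates 1 to 3, against 57.6, 54.2 and 231 CPM in control replicates 1 to 3. The ccl5 libraries thus held both the lowest levels and the highest, a 101-fold range, with all 3 controls between them. The group means of 82.1 ± 137 CPM for ccl5 and 114 ± 101 CPM for controls describe no single library, and the log2 fold change of -0.48 (SE 1.69, adjusted p = 0.91 in edgeR) had an error larger than itself.

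The progenitor factors Myb and Runx1 had unlike patterns. Myb (chromosome 10, 21124930 to 21160984) measured 64.5, 628 and 51.1 CPM with ccl5, against 313, 329 and 624 CPM in controls. Like Gfi1, it was highest in ccl5 replicate 2 and control replicate 3, intermediate in control replicates 1 and 2 and lowest in ccl5 replicates 1 and 3. Its log2 fold change was -0.77 (SE 1.01; edgeR, adjusted p = 0.751). Runx1 (chromosome 16, 92601466 to 92826066) measured 57.3, 59.5 and 49.3 CPM with ccl5, against 26.3, 25.2 and 55.3 CPM in controls. It was about level in 4 libraries and lower in control replicates 1 and 2, with a log2 fold change of 0.64 (SE 0.34, adjusted p = 0.432 in edgeR).

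**Figure D1:**
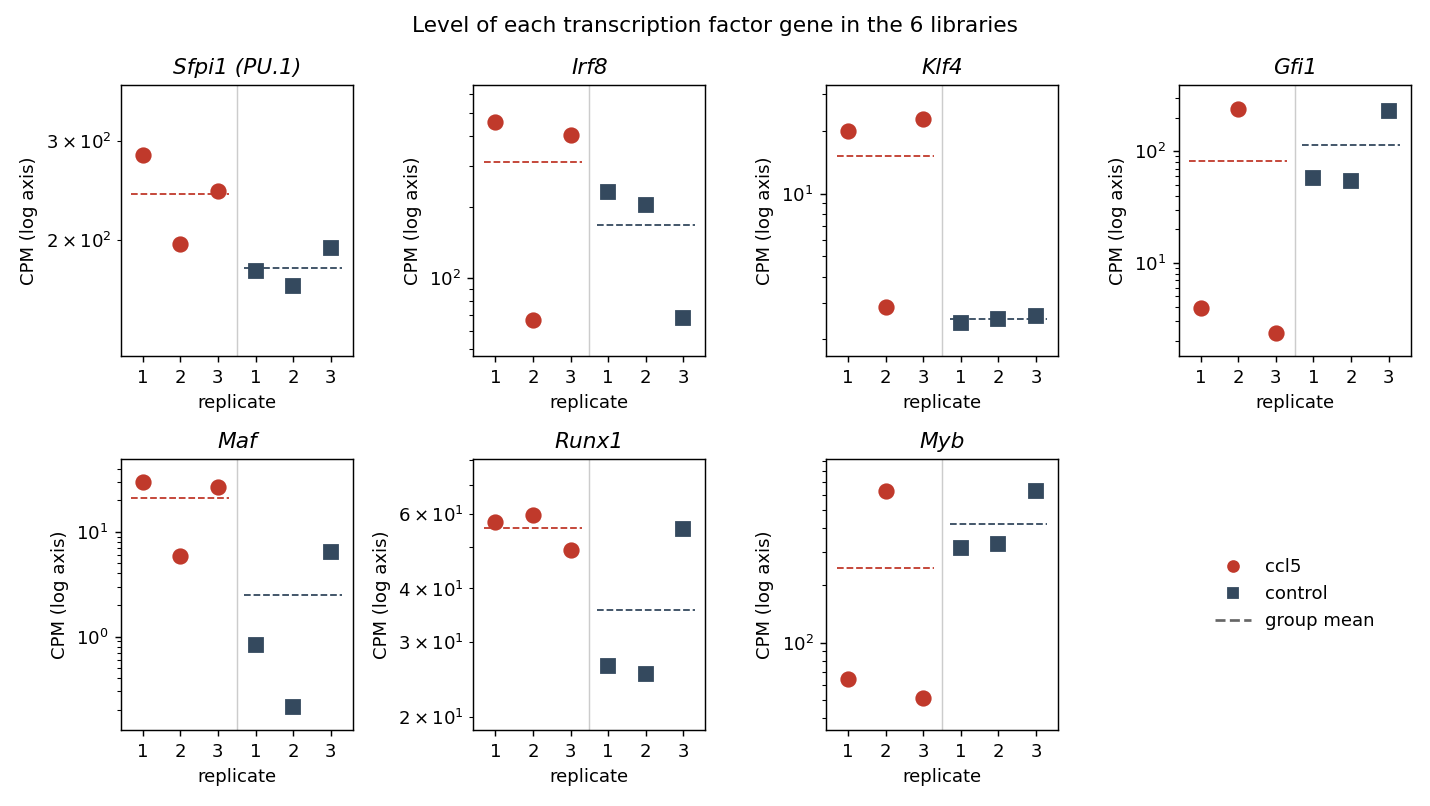
CPM of each gene (log axis, own scale per panel) in ccl5 replicates 1 to 3 (circles) and control replicates 1 to 3 (squares), with dashed lines at the group means. Ccl5 replicate 2 and control replicate 3 lie at nearly the same level in every panel, for Gfi1 at 240.0 and 231 CPM and for Irf8 at 66.8 and 68.2 CPM.

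Of the 7 genes, 0 passed an adjusted p of 0.05 in edgeR, as did 0% of all 12174 tested genes. DESeq2's Wald test called 1 of the 7, Klf4 (log2 fold change 2.61, SE 0.74, adjusted p = 0.0388), and 1.64% of all genes, and gave no p for Gfi1 and Myb. There were 5 genes with a higher and 2 with a lower fold change, with a median log2 fold change of 0.64 over the 7. The groups did not overlap for 2 of the 7, Sfpi1 and Klf4, both higher with ccl5, against 8.27% of tested genes that lay wholly higher and 7.49% wholly lower. Scaled to total counts, this held for 1 of the 7, Klf4. For all other genes, and for the shares of tested genes, overlap was judged with TMM scaling only.

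Between ccl5 replicate 2 and control replicate 3, the pair most alike across the treatment, the 7 genes differed by a median of 0.06 and at most 0.14 on the log2 scale, against a median of 0.11 over all tested genes. Between ccl5 replicates 2 and 3, which share their labels and treatment, they differed by a median of 2.60 and at most 6.59, against 0.66 over all tested genes. Ccl5 replicates 1 and 3 differed by a median of 0.21, and the other 8 pairs of a ccl5 and a control library by medians of 1.18 to 2.75.

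The choice of libraries set the size of the fold changes and in part their direction. Without ccl5 replicate 2, edgeR called 4 of the 7 genes, against 26.2% of all tested genes. Sfpi1 (log2 fold change 0.57, adjusted p = 0.0401) and Klf4 (3.10, adjusted p = 0.00229) were called higher, and Gfi1 (-5.17, adjusted p = 0.0218) and Myb (-2.87, adjusted p = 0.0113) lower. That fit sets ccl5 replicates 1 and 3, the libraries with 0 Y-linked counts, against controls that all hold them, and the part of this difference in the result was not tested. Without control replicate 3, 0 of the 7 were called, against 1.88% of all genes, with Maf at 5.35 (adjusted p = 0.0938) and Runx1 at 1.12 (adjusted p = 0.0512) closest. In that fit the Gfi1 fold change was 0.57, positive where it was negative with all libraries. Without ccl5 replicate 1 or without ccl5 replicate 3 the Gfi1 fold change was also positive, at 0.09 and 0.10, and Myb stood at -0.31 and -0.28.

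Within the neo10 primary transplant libraries, ccl5 replicates 2 and 3 against control replicate 3 alone, log2 fold changes were 0.18 for Sfpi1, 1.76 for Irf8, 2.28 for Klf4 and 1.33 for Maf. There they were -0.93 for Gfi1, -0.88 for Myb and -0.04 for Runx1, with an adjusted p of 1 for each gene in edgeR. Among libraries with Y-linked reads, ccl5 replicate 2 alone against the 3 controls, they were 0.14 for Sfpi1, -1.33 for Irf8, 0.20 for Klf4 and 1.24 for Maf. In that set Gfi1 stood at 1.07, Myb at 0.57 and Runx1 at 0.74, and adjusted p lay between 0.767 and 0.838. Sfpi1, Klf4 and Maf kept a positive fold change in both sets, while Irf8, Gfi1, Myb and Runx1 had opposite signs in them. Both sets hold ccl5 replicate 2 and control replicate 3, so like signs in them are not separate evidence. In both fits 1 group is a lone library, assumed to vary like the other group.

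**Figure D2:**
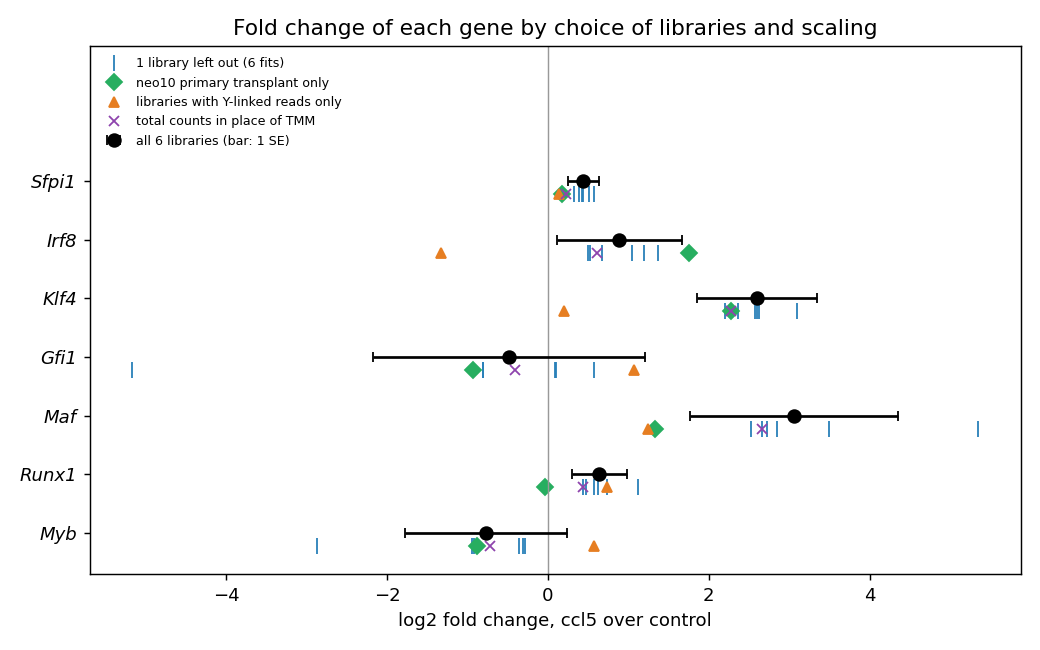
Log2 fold change (ccl5 over control) of each gene with all 6 libraries (black, bar of 1 SE), with 1 library left out (blue), in the neo10 primary transplant libraries (green), in libraries with Y-linked reads (orange) and scaled to total counts (purple). Sfpi1 keeps to a narrow positive range of 0.14 to 0.57, while Gfi1 spans -5.17 to 1.07 across zero.

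Per kilobase of exon, Sfpi1 was the highest of the 7 genes in 4 libraries. In ccl5 replicates 1 and 3 the order was Sfpi1 (212 and 183 CPM per kb), Irf8 (163 and 143) and then, far lower, Myb (17.1 and 13.5), with Gfi1 last (1.37 and 0.827). Maf, Runx1 and Klf4 lay close together there, between 6.57 and 8.21 CPM per kb, and their order differed between these 2 libraries. In ccl5 replicate 2 and control replicate 3 the order was Myb (166 and 165 CPM per kb), Sfpi1 (147 and 145), Gfi1 (83.8 and 80.7) and Irf8 (23.6 and 24.1), with Klf4 last (0.943 and 0.849). In control replicates 1 and 2 Sfpi1 led (132 and 124 CPM per kb), Myb (82.9 and 87.1) and Irf8 (81.7 and 72.0) followed without a clear gap, and Maf was last (0.226 and 0.0586).

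**Figure D3:**
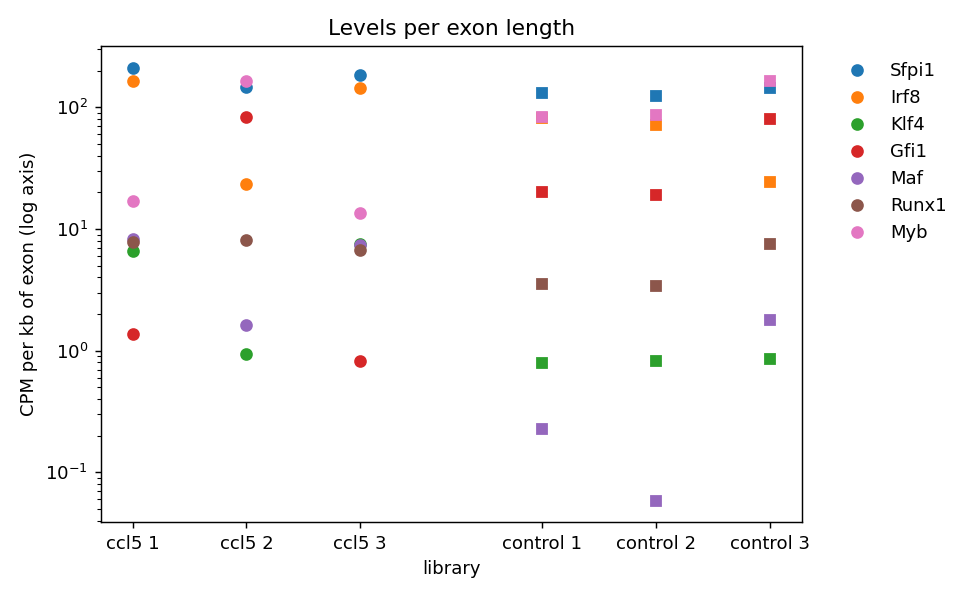
CPM per kb of exon (log axis) of the 7 genes in each library, ccl5 replicates 1 to 3 as circles and control replicates 1 to 3 as squares. Gfi1 stands last in ccl5 replicates 1 and 3 (1.37 and 0.827 CPM per kb) and in the third place in ccl5 replicate 2 and control replicate 3 (83.8 and 80.7).

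Ratios between factors within a library, which do not depend on library scaling, spread as widely. The log2 ratio of Irf8 to Gfi1 counts, monocyte against neutrophil side, was 6.82, -1.84 and 7.33 in ccl5 replicates 1 to 3, against 2.0, 1.91 and -1.76 in control replicates 1 to 3. Irf8 counts thus exceeded Gfi1 counts in 4 libraries and were exceeded in ccl5 replicate 2 and control replicate 3. The log2 ratio of Klf4 to Gfi1 was 2.31, -6.33 and 3.19 with ccl5, against -4.51, -4.37 and -6.42 in controls, so it was above 0 in ccl5 replicates 1 and 3. Sfpi1 over Gfi1 stood at 6.12, -0.29 and 6.60 with ccl5, against 1.61, 1.60 and -0.26 in controls. Sfpi1 over Myb stood at 2.13, -1.68 and 2.25 with ccl5, against -0.83, -1.0 and -1.69 in controls. Counts were not divided by exon length here, so the sign of a ratio need not give the order per kilobase. Per kilobase, Sfpi1 lay above Myb in control replicates 1 and 2 (132 and 124, against 82.9 and 87.1). It also lay above Gfi1 in ccl5 replicate 2 and control replicate 3 (147 and 145, against 83.8 and 80.7).

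Mean differences, ccl5 minus control, were 3.38 for Irf8 over Gfi1, 4.82 for Klf4 over Gfi1, 3.16 for Sfpi1 over Gfi1 and 2.08 for Sfpi1 over Myb (log2, n = 3 each). A two-sided exact permutation test gave p = 0.4, 0.3, 0.4 and 0.3 in the same order, each 0.4 after Benjamini-Hochberg adjustment over these 4 ratios, where 3 against 3 libraries allow no p below 0.1. All 4 differences turned negative among libraries with Y-linked reads, at -2.56, -1.23, -1.27 and -0.50 in that order.

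**Figure D4:**
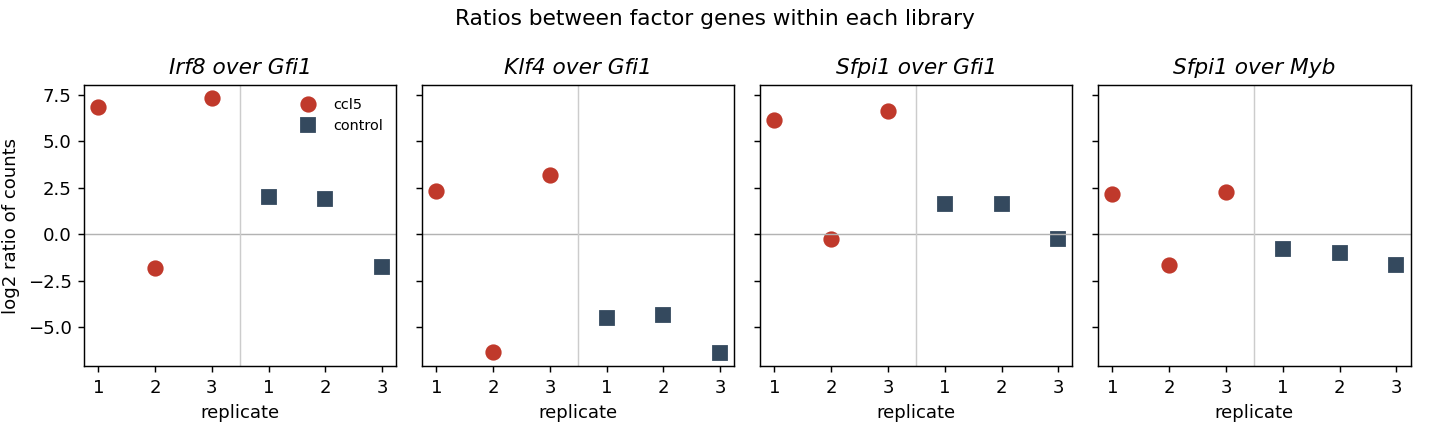
Log2 ratio of the counts of 2 factor genes within each library, ccl5 replicates 1 to 3 (circles) and control replicates 1 to 3 (squares). In each panel ccl5 replicates 1 and 3 stand highest, and ccl5 replicate 2 lies beside control replicate 3, at -1.84 and -1.76 for Irf8 over Gfi1.

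Summed levels of genes that mark cell types and division also differed between the pairs of libraries, with the layout of these factors only in part. The summed level of 20 G2/M and mitosis genes was 356, 3122 and 248 CPM with ccl5, against 1260, 1334 and 3029 CPM in controls, highest in ccl5 replicate 2 and control replicate 3 as for Gfi1 and Myb. All 20 had a lower fold change (median log2 -0.72), and 0 were called with all libraries. Without ccl5 replicate 2, 18 of the 20 were called lower, against 1497 of all 12581 genes tested in that fit. The median was 0.64, with all 20 higher, among libraries with Y-linked reads. The summed level of 10 neutrophil genes was 877, 12844 and 906 CPM with ccl5, against 1173, 1211 and 12462 CPM in controls, with 5 higher and 5 lower fold changes (median log2 -0.01). That balance rests on which libraries enter: the neutrophil median was -4.43 without ccl5 replicate 2 (2 higher, 8 lower), 2.86 without control replicate 3 (9 higher, 1 lower) and 1.27 among libraries with Y-linked reads (10 higher). The neutrophil sum of control replicates 1 and 2 lay near that of ccl5 replicates 1 and 3, unlike Gfi1. Single genes of the list differed between these pairs in both directions. Mmp8 (465, 249.7 and 533 CPM with ccl5, against 44.1, 35.6 and 286 CPM in controls) and Csf3r were highest in ccl5 replicates 1 and 3. S100a8 and Prtn3 were highest in ccl5 replicate 2 and control replicate 3, and lowest in ccl5 replicates 1 and 3. S100a8 measured 6.13, 1218 and 6.92 CPM with ccl5, against 450.2, 491 and 1246 CPM in controls. The summed level of 10 monocyte and macrophage genes was 18744, 5070 and 21598 CPM with ccl5, against 14198, 13967 and 5518 CPM in controls, with 8 higher and 2 lower (median log2 1.45), or 7 and 3 scaled to total counts. Among libraries with Y-linked reads that list had 4 higher and 6 lower (median log2 -0.26). The groups did not overlap for 3 of these 10 genes, 2 higher and 1 lower, against 15.8% of all tested genes. The part of cell type and cell division in the factor levels was not tested.

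Markers of other blood and stromal cells were low. Of 7 B-lymphoid markers, Pax5 and Ebf1 had at most 3 counts in every library, and the summed level was 14.3 to 49.8 CPM with ccl5, against 14.3 to 17 CPM in controls. Blnk, an adaptor of B cell receptor signalling that macrophages also express, made up most of the higher ccl5 sums, at 34.3, 2.69 and 33.1 CPM with ccl5, against 0.0634, 0.0533 and 3.14 CPM in controls. Of 8 T and NK markers, Cd3e, Cd3g, Cd4 and Ncr1 had at most 3 counts, with sums of 1.27 to 62.5 CPM with ccl5, against 3.42 to 69.3 CPM in controls, mostly from Nkg7 where they were highest. Of 8 erythroid and megakaryocyte markers, Hbb-b1, Hba-a1 and Gp9 had at most 3 counts, with sums of 7.63 to 31.4 CPM with ccl5, against 4.57 to 11.1 CPM in controls. The sums for 5 mast, basophil and eosinophil markers were 2.09 to 8.98 CPM with ccl5 and 5.26 to 13.7 CPM in controls. For 5 stromal and endothelial markers they were 26.7 to 85.6 CPM with ccl5 and 86.0 to 98.5 CPM in controls, where Pecam1, also found on myeloid cells, made up most of the sum. The 6 dendritic cell markers summed to 3.6 to 136 CPM with ccl5, against 4.57 to 109 CPM in controls, mostly from Itgax, which macrophages also express.

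**Figure D5:**
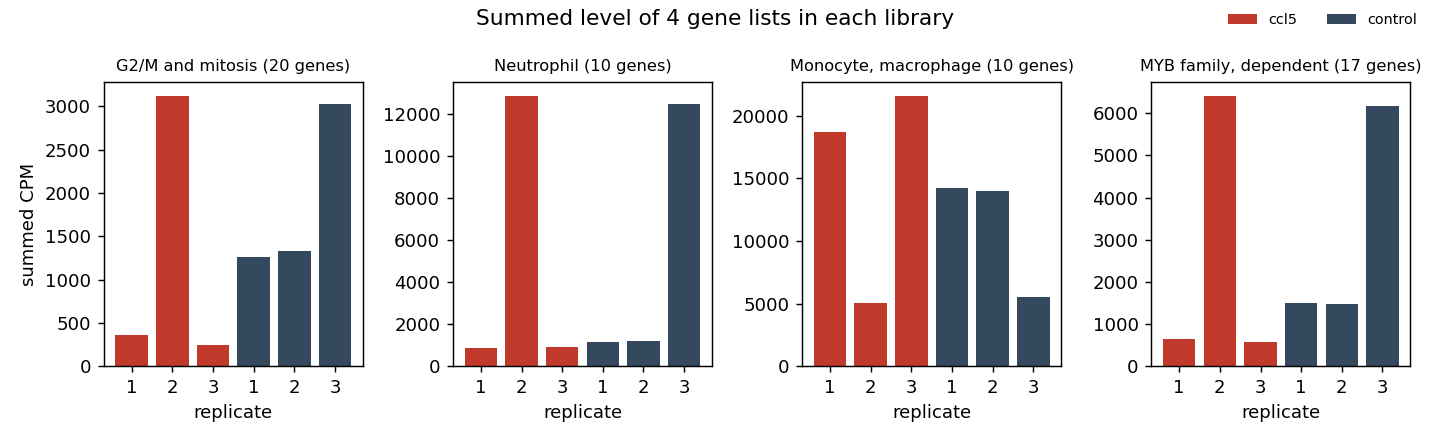
Summed CPM of 4 gene lists in ccl5 replicates 1 to 3 (red) and control replicates 1 to 3 (dark). G2/M, neutrophil and MYB-dependent sums are highest in ccl5 replicate 2 and control replicate 3, where monocyte and macrophage sums are lowest, at 5070 and 5518 CPM. The neutrophil and MYB-dependent lists share Prtn3, Elane and Mpo.

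PU.1 target genes were split in the direction of their fold changes. Their summed level was 28641, 13657 and 32439 CPM with ccl5, against 18775, 18488 and 13853 CPM in controls. That sum was highest in ccl5 replicates 1 and 3, like Sfpi1, but lowest in ccl5 replicate 2 and control replicate 3, where Sfpi1 was intermediate. Of 27 tested targets, 14 had higher and 13 had lower fold changes with a median log2 of 0.07 (13 and 14 scaled to total counts), 0 were called, and 3 did not overlap between groups, all of them lower, against 7.49% of all tested genes. Without ccl5 replicate 2 edgeR called 6 targets higher and 4 lower, against 26.2% of all tested genes called in either direction. Among libraries with Y-linked reads 11 targets had higher and 16 lower fold changes (median log2 -0.25). Ctss, the protease cathepsin S, had the smallest p at 4024, 499 and 4800 CPM with ccl5, against 296, 282 and 523 CPM in controls, a log2 difference of 3.08 (SE 0.85). Trem1, an activating receptor of neutrophils and monocytes, went the other way, at 0.783, 6.11 and 0.637 CPM with ccl5, against 39.4, 39.9 and 7.59 CPM in controls. Clec7a, the beta-glucan receptor dectin-1, measured 118, 42.9 and 153 CPM with ccl5, against 20.2, 23.6 and 46.3 CPM in controls. For these 3 genes ccl5 replicate 2 and control replicate 3 lay between the other pairs of libraries, as they did for Sfpi1. Not every PU.1 target had this layout.

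Partners and relatives of PU.1 were also split, with 7 of 14 tested higher and 7 lower. Jun, an AP-1 factor that PU.1 recruits as a coactivator, measured 175, 24.2 and 165 CPM with ccl5, against 28.0, 27 and 22.4 CPM in controls. Spic, the PU.1 relative of red pulp macrophages, had 4.63, 0.550 and 9.01 CPM with ccl5 and was listed at 0, 0 and 0.440 CPM in controls. Cebpa, which drives the granulocyte-monocyte progenitor, measured 329, 253 and 291 CPM with ccl5, against 97.3, 82.6 and 247 CPM in controls. Its layout was close to that of Runx1, with only control replicates 1 and 2 low.

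Within the IRF family, 5 of 7 tested genes besides Irf8 had a higher fold change (median log2 0.33, or 0.13 scaled to total counts with 4 of 7 higher). Among libraries with Y-linked reads they split 4 to 4 (median log2 0.08). Irf2 measured 46.2, 26.9 and 43.7 CPM with ccl5, against 24.2, 20.8 and 22.9 CPM in controls, and the groups did not overlap. Irf5, a factor of inflammatory macrophages, measured 142, 20.9 and 138 CPM with ccl5, against 38.0, 37.0 and 20.5 CPM in controls, lowest like Irf8 in ccl5 replicate 2 and control replicate 3. Irf4, which acts with PU.1 in lymphoid and dendritic cells, lay apart from both, at 1.5, 0.611 and 1.09 CPM with ccl5, against 7.29, 7.04 and 0.110 CPM in controls.

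In the KLF family 7 of 10 tested genes besides Klf4 had a higher fold change (median log2 0.46, or 6 of 10 scaled to total counts), and 3 did not overlap between groups, all higher, against 8.27% of all tested genes. Among libraries with Y-linked reads 5 were higher and 6 lower (median log2 -0.08). The 3 genes were Klf13 at 193, 127 and 163 CPM with ccl5, against 74.2, 65.4 and 118 CPM in controls, Klf11 and Klf3. In each the 3 ccl5 libraries lay closer together than for Klf4, whose ccl5 libraries spanned 2.87 to 22.8 CPM.

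Monocyte fate factors downstream of IRF8 and KLF4, Klf4 included, had 8 of 11 tested genes with a higher fold change and a median log2 of 1.16. That median was -0.41, with 4 higher and 7 lower, among libraries with Y-linked reads. Id2, an inhibitor of E proteins, measured 569, 48.4 and 689.8 CPM with ccl5, against 42.0, 50.1 and 52.0 CPM in controls. Bcl6, a repressor that also acts in macrophages, measured 142, 19.4 and 148 CPM with ccl5, against 28.5, 24.6 and 20.02 CPM in controls. For Id2 and Bcl6, as for Klf4, ccl5 replicate 2 lay at the level of the controls. Among the other members of the MAF family, counted together with partners such as Bach1, 5 of 7 tested had a higher fold change (median log2 0.33). Among libraries with Y-linked reads it was 4 of 7, with a median of 0.08. Bach1, a repressor that pairs with small MAF proteins, measured 134, 93.6 and 130.4 CPM with ccl5, against 69.4, 65.8 and 93.5 CPM in controls.

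Genes known to be repressed by GFI1 did not move one way: among 13 tested, fold changes were higher for 5 and lower for 8 (median log2 -0.10), with a median of -0.88 without ccl5 replicate 2 and 0.16 without control replicate 3. Irf8 itself is on this list. Id2 was high in the ccl5 libraries with low Gfi1, replicates 1 and 3. Egr1, an immediate early factor of macrophages, was at 1.71, 0.489 and 1.37 CPM with ccl5, against 21.9, 24.6 and 0.495 CPM in controls, so it was low in libraries with low and with high Gfi1. GFI1 acts through the demethylase KDM1A and its partner RCOR1. Kdm1a measured 44.4, 39.1 and 36.4 CPM with ccl5, against 30.9, 33.2 and 31.9 CPM in controls, and Rcor1 54.8, 53.3 and 52.2 CPM with ccl5, against 42.4, 41.3 and 50.6 CPM in controls. Of the 7 tested corepressor genes, 5 had a higher fold change and no overlap between groups, against 8.27% of all tested genes. The median log2 was 0.27 over the list, and 0 were called. Overlap was judged with TMM scaling only, and scaled to total counts the median log2 was 0.1. All 7 had a higher fold change among libraries with Y-linked reads (median log2 0.29).

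Of 6 tested genes of the RUNX family and its core binding factor partners besides Runx1, 4 had a higher fold change, also among libraries with Y-linked reads (median log2 0.43, and 0.15 there). Runx3 measured 43.3, 37.6 and 37.1 CPM with ccl5, against 32.5, 31.4 and 30.6 CPM in controls, and the groups did not overlap. Runx2, better known from bone and plasmacytoid dendritic cells, measured 101, 81.8 and 93.4 CPM with ccl5, against 217, 205 and 80.6 CPM in controls. Control replicates 1 and 2 were thus high in Runx2 and low in Runx1.

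Of 13 tested MYB family and MYB-dependent genes, fold changes were higher for 2 and lower for 11, with a median log2 of -0.44, and 0 were called. Their summed level was 649, 6412 and 582 CPM with ccl5, against 1507, 1465 and 6166 CPM in controls, highest like Myb in ccl5 replicate 2 and control replicate 3. The granule genes Prtn3, Elane and Mpo, which neutrophil precursors express, are on this list and on the neutrophil list, so the 2 sums are not separate. Prtn3 alone measured 132, 974 and 106 CPM with ccl5, against 318, 324 and 985 CPM in controls. Myc, a transcription factor of cell growth downstream of MYB, was at 9.76, 67.0 and 5.10 CPM with ccl5, against 64.4, 64.8 and 53.3 CPM in controls, and was low only in ccl5 replicates 1 and 3. Hoxa9 and Lmo2, which act in leukemia stem cells and early progenitors, did not have the layout of Myb. Hoxa9 measured 90.7, 101 and 81.9 CPM with ccl5, against 192, 178 and 108 CPM in controls. Lmo2 measured 274, 269 and 285 CPM with ccl5, against 553, 513 and 289 CPM in controls. Among libraries with Y-linked reads the list had 9 higher and 4 lower fold changes (median log2 0.50).

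Genes with the pattern most like each factor, by Pearson r of log2 CPM over the 6 libraries among 8888 other genes, are given as a description, since the libraries lie in alike pairs and high r is common. For Myb these were Ect2, Rgs14 and Cenpe (r 0.9999 to 0.9995), and 2.60% of genes reached r of 0.99. Ect2, a cytokinesis exchange factor, measured 7.48, 66.5 and 6.10 CPM with ccl5, against 34.9, 35.0 and 65.5 CPM in controls. For Gfi1 they were Arap3, Nedd4 and the spindle gene Tpx2 (r 0.9997 to 0.999, with 2.72% of genes at 0.99 or more). Across the 6 libraries Gfi1 and Myb had r of 1.0 with each other, and r of -0.93 and -0.92 with Irf8. The monocyte-side factors varied less closely together, as Irf8 had r of 0.75 with Klf4 and only 0.25 with Maf. Klf4 and Maf had r of 0.80 with each other, and r of 0.93 and 0.92 with Sfpi1.

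For Irf8 the most alike genes were Stac2, Chchd10 and Tspan31 (r 0.9998 to 0.999), and for Klf4 they were Pik3cb, Tubgcp4 and Itsn1 (r 0.9997 to 0.999). At r of 0.99 or more there were 1.78% of genes for Irf8 and 2.32% for Klf4. Fewer genes shared the pattern of the other factors, with 0.135% for Sfpi1, 0.338% for Maf and 0.461% for Runx1. Sfpi1 was most like Ing2, Scaf4 and Rnf44, Maf like Rassf3, Acss1 and Cln6, and Runx1 like Hnrnpul1, Zfp236 and Maml1. Ing2, a chromatin reader, measured 26.3, 16.1 and 21.6 CPM with ccl5, against 13.8, 12.9 and 16 CPM in controls.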

How the data were processed

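Per the labels' protocols, poly(A) RNA gave single-end reads of 100 bases. The deposited values are raw read counts per gene for 6 libraries, made with featureCounts 1.5.1 (primary alignments, UCSC mm10 genes, no strand option), per the file headers. Per the submitters' processing notes, TopHat, Bowtie, Trimmomatic and DESeq2 were used, at versions not given. No other gene of that annotation shares exon bases with any of the 7 genes. The deposited exon lengths were used for levels per kb.

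Groups came from the titles. Counts were scaled by TMM and filtered with filterByExpr (minimum count 10), leaving 12174 of 18580 genes with reads. edgeR 4.0.16 in R 4.3.3 tested ccl5 against control (quasi-likelihood F test, two-sided, Benjamini-Hochberg over all tested genes, threshold 0.05). Each SE was taken as |log2 fold change|/√F. The code was tested on simulated data. Ratios used a prior count of 2 and an exact permutation test (scipy 1.17.1). The members and gene lists were chosen with earlier results of these data known. Up to 4 genes per list were named by smallest p, and 3 most alike genes per factor above a mean log2 CPM of 3. Alternatives were DESeq2 (1.42.0) size factors and Wald test, limma-voom (limma 3.58.1) with sample quality weights, other filters, a threshold of 0.1, leaving out each library and neo10 libraries alone. A few list genes are not reported here. Total-count scaling and libraries with Y-linked reads alone were added after the data were seen.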

Additional observations from a re-analysis of the deposited data

How the results depend on the processing

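No gene was called with all 6 libraries by edgeR under any of its scalings, filters or thresholds, with 1663 genes at an unadjusted p under 0.05. DESeq2's Wald test called 199 genes, with Klf4 at 2.61, and 8097 were called by limma-voom, which weights libraries by quality. The fits that left out 1 library called 0 to 3299 genes, of which 3299 without ccl5 replicate 2 and 237 without control replicate 3. limma-voom called all 7 factors, with log2 fold changes of 0.63 for Sfpi1, 0.99 for Irf8, 3.04 for Klf4, 5.87 for Maf, -4.03 for Gfi1, 1.05 for Runx1 and -2.41 for Myb, against 66.5% of all tested genes called. It gave ccl5 replicate 2 a weight of 0.07 and control replicate 3 a weight of 0.12, against 2.22 to 4.54 for the other 4 libraries, so its calls rest on those 4.

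Over the 6 fits that left out 1 library, log2 fold changes ran from 0.32 to 0.57 for Sfpi1, 0.50 to 1.37 for Irf8, 2.20 to 3.10 for Klf4, 2.53 to 5.35 for Maf, -5.17 to 0.57 for Gfi1, 0.44 to 1.12 for Runx1 and -2.87 to -0.28 for Myb. Runx1 turned to -0.04 within neo10 primary transplant libraries. Among libraries with Y-linked reads the sign turned for Irf8 (-1.33), Gfi1 (1.07), Myb (0.57) and the log2 ratios of Irf8 over Gfi1 (-2.56), Klf4 over Gfi1 (-1.23), Sfpi1 over Gfi1 (-1.27) and Sfpi1 over Myb (-0.50). The cause was not tested. Leaving out 1 library, these ratio differences ran from 1.77 to 6.36, 3.09 to 7.85, 1.93 to 5.38 and 1.40 to 3.36 in that order. Over all alternatives the adjusted p of Sfpi1 ran from 0.000335 to 1, that of Klf4 from 3.95e-05 to 1 and that of Runx1 from 9.49e-05 to 1. No paired analysis was possible because the titles number only the control libraries. Precision is limited by the 3 libraries per group and, for 3 genes, by low counts: Maf had 13 and 4 in control replicates 1 and 2, Gfi1 55 and 26 in ccl5 replicates 1 and 3, and Klf4 38 to 47 in ccl5 replicate 2 and the controls.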
